A study of Mus musculus with 34 samples.

Results

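The ephrin, semaphorin, netrin and Slit systems were followed in 3 murine colorectal cancer cell lines under the BRAF inhibitor encorafenib. The genes were chosen by symbol alone, as Eph receptors, ephrins, semaphorins of classes 3 to 7, plexins, neuropilins, Robo receptors, Slits, netrins and Unc5 receptors, and no measured value entered that rule, although the gene families were picked with earlier results of these data known. Of 68 such genes in the GENCODE annotation, 52 had a row among the 14107 genes of the count table: 9 Eph receptors, 8 ephrins, 17 semaphorins, 8 plexins, 2 neuropilins, 2 Robo receptors, 3 Slits, 2 netrins and 1 Unc5 receptor. The other 16 (Epha3, Epha6, Epha8, Epha10, Ephb1, Sema3g, Sema5b, Sema6c, Plxnc1, Robo3, Robo4, Ntn3, Ntn5, Unc5a, Unc5c and Unc5d) were not analysed here.

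NaJa-D, NaJa-F and NaJa-G each grew out of the peritoneal lavage of 1 C57BL/6N recipient mouse that had received colonic organoids of 1 male donor, so each line stands for 1 animal. All groups, controls included, carry the alleles listed by the submitters as VillinCreERT2::BrafV600E/+::Trp53R172H::APCdel, which were recombined in culture with 4-hydroxytamoxifen. The Villin promoter limits the Cre recombinase to gut epithelium, and the lines had also lost the wild-type Trp53 allele. NaJa-D is described as epithelial-like, NaJa-F as intermediate and NaJa-G as mesenchymal-like. Cells received 0.5 µM encorafenib, which blocks the kinase BRAF V600E, or its solvent (DMSO) and were harvested for RNA on day 1 or day 5, the latter with renewed inhibitor. Line, treatment and day gave 12 groups and 34 libraries, 3 per group except 2 for NaJa-F with encorafenib at day 5 and 2 for NaJa-G with DMSO at day 5.

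These gene families are known for steering growing axons, and most of them also act in epithelia and tumors. Ephrins are membrane-bound ligands of the Eph receptor tyrosine kinases, and contact between the cells that carry them usually drives the cells apart. In the intestinal crypt, Wnt signaling maintains Ephb2 and Ephb3 in the lower crypt while the ligands Efnb1 and Efnb2 rise towards the surface, which keeps the compartments sorted. Semaphorins signal through plexins, the secreted class 3 semaphorins mostly with a neuropilin as co-receptor. Slits are secreted ligands of Robo receptors, and netrins bind Dcc, neogenin and Unc5 receptors.

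Each library held 46007050 to 80121299 counts, and the 52 genes took 0.543% to 0.954% of them. Levels are given in CPM, counts divided by library size and brought to the usual common total after TMM scaling, and a gene was called where limma gave an adjusted p below 0.01 over all 14107 genes. The labels do not say that replicates were separate cultures, so p-values measure the spread between these libraries, which may be technical. The cell line field of library 3 of NaJa-D DMSO at day 1 reads NaJa-G. Its title was followed because it correlated at r = 0.997 or more with the other libraries of its title group and at 0.943 or less with NaJa-G DMSO at day 1. Epcam, an epithelial surface protein, was at 1110 CPM in NaJa-D DMSO at day 1, 497 in NaJa-F and 90.2 in NaJa-G, while Vim, the mesenchymal filament, was at 124, 449 and 2500 CPM. Fibronectin (Fn1) went against that order, at 14000, 9710 and 4370 CPM. The epithelial genes Krt8 (1280, 1460 and 908 CPM), Krt18 (1140, 1500 and 1310) and Cdx2 (22.7, 51.7 and 8.68) were highest in NaJa-F. Cdh1, Cldn3 and Cldn4 followed the order of Epcam. Vil1, whose promoter drives the Cre, was at 6.36, 0.702 and 0.548 CPM. Of 10 textbook ERK targets, 9 fell with encorafenib in NaJa-D at day 1 and 6 at day 5. In NaJa-F 7 and 5 fell, and in NaJa-G 8 and 9. Of all genes, 8.50% (NaJa-F at day 5) to 28.7% (NaJa-G at day 1) were called lower. In NaJa-D at day 1, NaJa-F at day 5 and NaJa-G at both days, 1 target rose. The group mean of the target Ccnd1 went from 812 to 1300 CPM in NaJa-G at day 1.

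Markers of other cell types were also measured. Of 8 fibroblast genes 6 were in the table, and their summed level was 2.62 to 9.11 CPM over all NaJa-D and NaJa-F libraries. In NaJa-G it was 57.6 to 78.0 CPM in DMSO and 95.6 to 112 CPM with encorafenib at day 1, and 20.2 to 22.9 CPM and 121 to 137 CPM at day 5, with Col1a1 holding the largest share. Their part in the guidance genes' differences was not tested. Endothelial genes (2 of 7 in the table) summed to at most 1.96 CPM. Leukocyte genes (2 of 8) summed to 3.64 to 10.2 CPM, and Ptprc, the pan-leukocyte marker, was not analysed here. Mesothelial genes (3 of 4), nearly all of it Msln, moved with treatment at day 1, with 1240 to 1510 CPM per library in DMSO against 2600 to 3520 with encorafenib in NaJa-D, 743 to 985 against 1100 to 1180 in NaJa-F and 558 to 724 against 1330 to 1520 for NaJa-G, while Upk3b and Lrrn4 stayed at or below 6.18 CPM as group means, and their part in the results was not tested. Schwann cell and neuron genes (2 of 7) summed to 6.42 to 49.0 CPM, most of it Tubb3. In bulk RNA, fewer cells of a type and less RNA per cell cannot be told apart.

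The receptor and ligand repertoire was uneven, as the plot of levels in DMSO shows. Per kb of exons, which allows genes to be compared, the highest group means in NaJa-D at day 1 were those of Epha2 at 441 CPM per kb, Sema3c at 310, Plxnb2 at 202 and Unc5b at 111. The same 4 genes led in NaJa-F at day 1 (270, 255, 137 and 71.5 CPM per kb) and in NaJa-G at day 1 (229, 159, 82.5 and 93.6). Epha2 is an Eph receptor common in epithelial tumors, Sema3c a secreted semaphorin, Plxnb2 a receptor of class 4 semaphorins and Unc5b a repulsive netrin receptor. Among ephrins, Efnb2 was highest in NaJa-D at day 1, at 40.8 CPM per kb. The crypt receptors differed from each other, with Ephb3 at 11 and Ephb2 at 0.12 CPM per kb. The lowest in NaJa-D were Robo2, Epha5, Plxnb3, Sema6a, Sema4a, Ntn1 and Sema4g, at or below 0.101 CPM per kb in DMSO. The netrin receptor Dcc, often lost in colorectal cancer, was at 0.126 to 0.662 CPM in the DMSO groups.

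**Figure D1:**
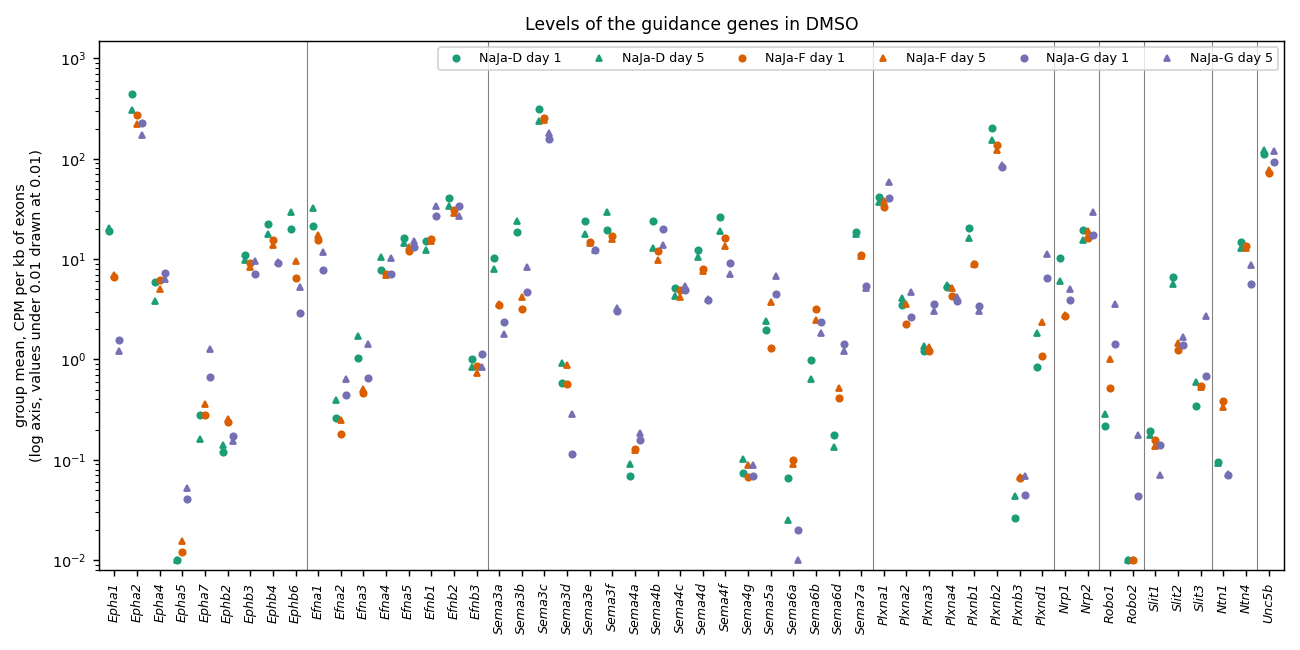
Group mean of each of the 52 genes in DMSO, in CPM per kb of exons on a log axis, for the 3 lines at day 1 (circles) and day 5 (triangles), with families separated by lines and values under 0.01 drawn at 0.01. Epha2, Sema3c, Plxnb2 and Unc5b lie highest in each line, and Robo2 and Epha5 are at the bottom in NaJa-D and NaJa-F.

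The ground states of the lines were compared in DMSO, over both days. In NaJa-F against NaJa-D, 11 of the 52 genes were higher (background 32.6% of all genes) and 26 lower (29.0%). In NaJa-G against NaJa-D, 17 were higher (33.3%) and 25 lower (34.1%), and in NaJa-G against NaJa-F, 23 were higher (25.2%) and 21 lower (29.2%). The share of lower genes in NaJa-F and NaJa-G stood above the background, while the share of higher genes in NaJa-F stood below it. The 3 comparisons share libraries, since each line enters 2 of them.

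Among Eph receptors, the epithelial receptor Epha1 was graded over the lines. Its DMSO libraries at day 1 were at 65.3, 80.5 and 79.7 CPM in NaJa-D, 25.7, 26.5 and 25.8 for NaJa-F and 6.08, 6.13 and 6 for NaJa-G, with no overlap between lines. The log2 difference was -3.85 ± 0.076 (SE), limma adjusted p = 2.56e-26, for NaJa-G against NaJa-D and -2.31 ± 0.078 (SE) against NaJa-F. Of the exons of Epha1, 6.01% overlap Zyx on the opposite strand, and the strand setting of the counting is not given in the sources used here. Ephb6, an Eph receptor without kinase activity, was lower in NaJa-F (-1.60 ± 0.065 (SE), limma adjusted p = 1.44e-18) and in NaJa-G (-2.61 ± 0.076 (SE)) than in NaJa-D. Epha2 was at 1830, 2170 and 2190 CPM in NaJa-D at day 1, 1250, 1290 and 1240 in NaJa-F and 1170, 1020 and 1030 for NaJa-G. It was lower in NaJa-F (-0.58 ± 0.054 (SE), limma adjusted p = 1.47e-10) and NaJa-G (-0.88 ± 0.057 (SE), limma adjusted p = 3.30e-14), and differed by -0.30 for NaJa-G against NaJa-F, where the libraries of both lines overlapped. Epha5 and Epha7 went the other way, with Epha7 at 2.73, 2.77 and 6.6 CPM at day 1 and a log2 difference of 2.12 between NaJa-G and NaJa-D.

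The crypt pair of B receptors and their ligands moved less. Ephb3 was slightly lower in NaJa-F (-0.26 ± 0.051 (SE), limma adjusted p = 5.52e-05) and NaJa-G (-0.33 ± 0.054 (SE), limma adjusted p = 4.22e-06) than in NaJa-D, with overlapping libraries in both, and was not called between NaJa-G and NaJa-F (-0.067 ± 0.054 (SE)). Ephb2, at 1.52 to 3.23 CPM in the DMSO groups, exceeded its NaJa-D level in NaJa-F (0.93 ± 0.11 (SE), limma adjusted p = 1.47e-08) and its NaJa-G level too (NaJa-G minus NaJa-F -0.58 ± 0.10 (SE)). Its difference between NaJa-G and NaJa-D (0.36 ± 0.12 (SE), limma adjusted p = 0.00979) lost the call when any of 7 single libraries was left out, down to 0.25 (adjusted p = 0.106) without NaJa-G DMSO day 5 library 3. Here and below, where a group of 2 libraries lost 1, the p-value assumes that the lone library varies like the other groups. The ligand Efnb1 was higher in NaJa-G, at 104, 87.4 and 84.8 CPM at day 1 against 47.2, 58.2 and 50.8 in NaJa-D (1.13 ± 0.079 (SE), limma adjusted p = 2.23e-13), by 0.95 ± 0.078 (SE) above NaJa-F, and was not called between NaJa-F and NaJa-D (0.18). Efnb2 was lower in NaJa-F (-0.32 ± 0.047 (SE), limma adjusted p = 7.76e-07) and NaJa-G (-0.29 ± 0.050 (SE), limma adjusted p = 6.53e-06) than in NaJa-D, with overlapping libraries in both, and was at 0.027 between NaJa-G and NaJa-F. Efna1, an A ligand of Epha2, was also lower in NaJa-G, with a log2 difference to NaJa-D of -1.45.

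Class 3 semaphorins, secreted proteins that mostly repel cells, were below their NaJa-D level in NaJa-G for all 6 members. Sema3a, Sema3b, Sema3e and Sema3f were also lower in NaJa-F, where Sema3c (-0.12) and Sema3d (-0.084) were not called. Sema3b was at 76.8, 99.5 and 88.8 CPM in NaJa-D at day 1 and 14.6, 14.9 and 15.9 in NaJa-F (-2.52 ± 0.064 (SE), limma adjusted p = 3.24e-23). Sema3f was at 91.5, 117 and 96.7 CPM in NaJa-D, 93.3, 90.7 and 81.8 for NaJa-F and 16.9, 16.1 and 14.6 for NaJa-G, where it was far below both (-2.92 ± 0.090 (SE), limma adjusted p = 7.81e-22, and -2.37 ± 0.089 (SE) against NaJa-F). Of the membrane-bound class 5 and 6 semaphorins, Sema5a, Sema6b and Sema6d were above their NaJa-D level in NaJa-G and Sema6a was lower (-1.62). Sema6d was at 1.78, 1.9 and 1.96 CPM in NaJa-D, 4.39, 4.26 and 4.53 for NaJa-F and 14.6, 15.5 and 15.2 for NaJa-G (3.08 ± 0.10 (SE), limma adjusted p = 6.44e-21, and 1.59 ± 0.11 (SE) for NaJa-F against NaJa-D). Sema6b was above its NaJa-D level in NaJa-F (1.83 ± 0.12 (SE), limma adjusted p = 1.58e-13), and Sema5a was above it in NaJa-G, with a log2 difference of 1.33. Class 4 members Sema4d and Sema4f and the GPI-anchored Sema7a were lower in NaJa-G, with log2 differences to NaJa-D of -1.52, -1.46 and -1.81.

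The plexins split in the same comparison. Plxnb1 and Plxnb2, receptors of class 4 semaphorins, were lower in NaJa-G, with log2 differences to NaJa-D of -2.49 and -1.06. Plxnd1, a receptor of class 3 semaphorins known from blood vessels, was at 5.84, 7.25 and 5.26 CPM in NaJa-D, 8.9, 8.16 and 6.76 for NaJa-F and 53.3, 45.8 and 44.5 for NaJa-G, and the log2 difference of NaJa-G to NaJa-F was 2.43 ± 0.080 (SE), limma adjusted p = 6.03e-21. Plxna3 was also higher in NaJa-G (1.35). Of the co-receptors, Nrp1 was lower in NaJa-F (-1.53) and NaJa-G (-0.84), while Nrp2 was not called in NaJa-F (0.026) and was higher in NaJa-G (0.39), with overlapping libraries.

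The ligand Slit2 was highest in NaJa-D and the Robo receptors in NaJa-G. Slit2 was at 164, 165 and 179 CPM in NaJa-D at day 1, 31.6, 31.9 and 31.1 in NaJa-F and 34.3, 36.1 and 36 for NaJa-G, and the NaJa-D libraries lay above all others. Its log2 difference was -2.19 ± 0.052 (SE), limma adjusted p = 7.73e-24, for NaJa-F and -1.995 ± 0.054 (SE) for NaJa-G, both against NaJa-D, and NaJa-G exceeded NaJa-F by 0.19 ± 0.056 (SE), limma adjusted p = 0.00375, with overlapping libraries, a call lost without NaJa-G DMSO day 5 library 1, at 0.15 (adjusted p = 0.039). The receptor Robo1 was higher in each step, at 3.14, 3.38 and 4.2 CPM in NaJa-D, 8.83, 9.35 and 7.53 for NaJa-F and 24.9, 23.1 and 22.5 for NaJa-G (3.19 ± 0.083 (SE), limma adjusted p = 1.78e-23, and 1.65 ± 0.058 (SE) for NaJa-G against NaJa-F). Robo2 held 0 to 5 counts in each NaJa-D DMSO library and 1 to 9 in each NaJa-F DMSO library, but 38 to 70 counts per library in NaJa-G at day 1 and 175 to 223 at day 5 (limma adjusted p = 5.98e-12 against NaJa-D and 1.52e-11 against NaJa-F), and it was not called between NaJa-F and NaJa-D (adjusted p = 0.115). The netrin Ntn1, an attractant or repellent depending on the receptor, was highest in NaJa-F, at 2.33, 2.69 and 2.28 CPM at day 1 against 0.565, 0.633 and 0.582 in NaJa-D and 0.458, 0.482 and 0.383 in NaJa-G (1.94 ± 0.18 (SE), limma adjusted p = 9.84e-11, and -2.36 ± 0.19 (SE) for NaJa-G against NaJa-F). Ntn4, found in basement membranes, was below its NaJa-D level in NaJa-G (-0.98), and Unc5b was lower in NaJa-F (-0.64) and not called in NaJa-G (-0.13).

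These genes also differed between the days without inhibitor. From day 1 to day 5 in DMSO, 8 genes rose (background 13.7%) and 18 fell (15.3%) in NaJa-D, 8 rose (9.73%) and 4 fell (7.01%) in NaJa-F, and 19 rose (17.2%) and 5 fell (16.8%) in NaJa-G. With only the compared groups fitted, the 19 and 5 of NaJa-G became 12 and 1. Scaled by library size alone, the split was 13 up and 10 down in NaJa-D and 13 up and 2 down in NaJa-F, and the median of all genes shifted by 0.18 in NaJa-D. That scaling also moved the median of all genes by 0.12 for both lines against NaJa-D and by -0.13 for the difference in response between NaJa-G and NaJa-D at day 1. Plxnd1 rose in each line, in NaJa-D from 5.84, 7.25 and 5.26 to 15.2, 12.9 and 11.8 CPM (1.13 ± 0.16 (SE), limma adjusted p = 1.65e-06). Sema5a rose in NaJa-F, from 26.9, 24.8 and 21.5 to 70.2, 70.9 and 68.6 CPM (1.53 ± 0.098 (SE), limma adjusted p = 7.41e-12). Robo2 rose in NaJa-G, from 0.916, 0.683 and 0.632 to 2.93 and 3.09 CPM (2.01 ± 0.27 (SE), limma adjusted p = 6.37e-07). Sema4b, a class 4 semaphorin, fell in each line, by 0.89 ± 0.075 (SE) in NaJa-D (limma adjusted p = 3.41e-10), by 0.33 in NaJa-F and by 0.55 in NaJa-G. In NaJa-F that call was lost without DMSO day 1 library 2, at -0.31 (adjusted p = 0.0128).

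Epha2 fell over time in each line, from 2061 to 1415 CPM in NaJa-D (-0.54 ± 0.076 (SE), limma adjusted p = 2.42e-06), by 0.28 ± 0.076 (SE) in NaJa-F and by 0.41 ± 0.083 (SE) in NaJa-G. The call in NaJa-F was lost when any of its 6 libraries was left out (largest adjusted p 0.0284, at -0.27, without DMSO day 1 library 2), and that in NaJa-G without DMSO day 5 library 1, at -0.23 (adjusted p = 0.0507). Efnb2 fell in NaJa-D (-0.28 ± 0.066 (SE), limma adjusted p = 0.00107) and NaJa-G (-0.30 ± 0.075 (SE), limma adjusted p = 0.00148). These calls were lost without NaJa-D DMSO day 5 library 3 (-0.22 (adjusted p = 0.0137)) or day 1 library 3 (-0.26 (adjusted p = 0.0119)), and without NaJa-G DMSO day 5 library 3 (-0.23 (adjusted p = 0.0474)). Ephb3 rose in NaJa-G (0.42 ± 0.080 (SE), limma adjusted p = 0.000118), a call that was lost with only the compared groups fitted, at 0.435 (adjusted p = 0.0115), as were those of Epha2 and Efnb2 in NaJa-G. Efnb1 and Ephb2 were called in no line over time, at -0.28, -0.037 and 0.34 and at 0.24, 0.11 and -0.16 for NaJa-D, then NaJa-F, then NaJa-G.

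Encorafenib was compared with DMSO of the same line and day. In NaJa-D, 21 genes were higher at day 1 (background 23.7%) and 10 lower (21.2%), and at day 5 the counts were 17 (18.3%) and 10 (14.7%). In NaJa-F, 17 were higher (17.5%) and 9 lower (12%) at day 1, with 12 (9.70%) and 9 (8.50%) at day 5. In NaJa-G, 28 were higher (35.3%) and 12 lower (28.7%) at day 1, and 25 (28.5%) and 11 (24.7%) at day 5. As shares of the 52, with the lines in the same order and day 1 before day 5, the higher genes made 40.4%, 32.7%, 32.7%, 23.1%, 53.8% and 48.1%, each above its background, and the lower genes 19.2%, 19.2%, 17.3%, 17.3%, 23.1% and 21.2%, below the background in NaJa-D at day 1 and at both days in NaJa-G. The median log2 fold change of the 52 was 0.24, 0.074, 0.083, 0.13, 0.38 and 0.36, and that of all genes 0.036, 0.014, -0.017, 0.003, 0.044 and 0.011.

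**Figure D2:**
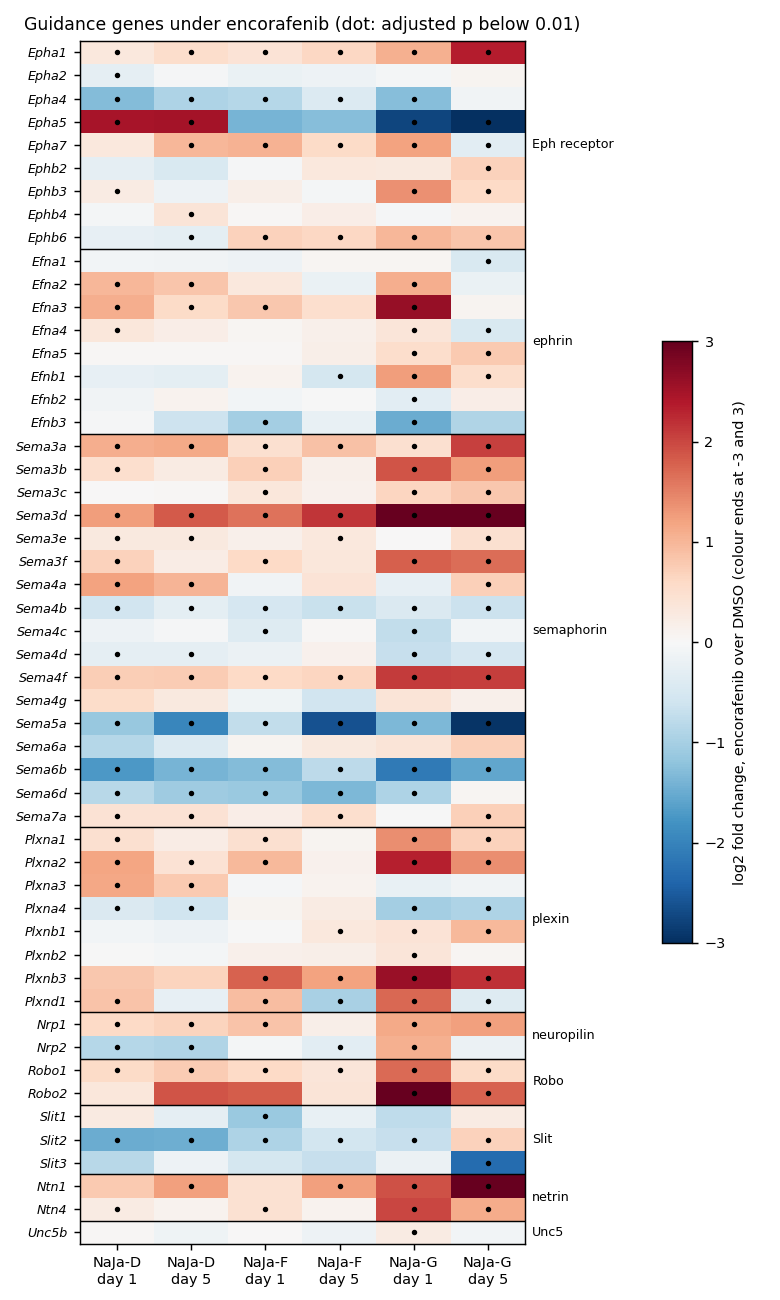
Log2 fold change of each of the 52 genes (rows, grouped by family) with encorafenib over DMSO in the 3 lines at day 1 and day 5 (columns). Red is higher and blue lower, the colors end at -3 and 3, and a dot marks an adjusted p below 0.01, as for Sema3d in all 6 columns.

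A gene that moves the same way in every line and at both days stands apart from line-specific ones. Higher in all 6 comparisons were the receptors Epha1 and Robo1 and the semaphorins Sema3a, Sema3d and Sema4f, 5 of 52 or 9.62% against 5.08% of all genes. Lower in all 6 were Sema4b, Sema5a and Sema6b, 3 of 52 or 5.77% against 3.07%. Not every call was secure. In NaJa-D at day 1, without DMSO library 1, Epha1 was at 0.18 (adjusted p = 0.017) and Robo1 at 0.45 (adjusted p = 0.0224). In NaJa-F at day 5, without encorafenib library 1, Robo1 was at 0.26 (adjusted p = 0.0739) and Sema6b at -0.50 (adjusted p = 0.046). Sema4b in NaJa-D at day 5 lost its call when DMSO library 1 or 2 or encorafenib library 2 or 3 was left out, at -0.23, -0.24, -0.27 and -0.28. Sema3a, Sema3d, Sema4f and Sema5a kept all 6 calls when any 1 library was left out.

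The bases before the start sites of 2 genes higher and 2 genes lower in all 6 comparisons are shown as examples of both directions, picked after their values were seen. They come from RefSeq on GRCm38.p6, are the 250 bases before the annotated start, run 5′ to 3′ along the gene, and show matches to 5 searched motifs in capitals. Sema3d (chr5:12382916-12383165, plus strand) and Sema4f (chr6:82939770-82940019, minus strand) rose, and Sema5a (chr15:32244563-32244812, plus strand) and Sema6b (chr17:56140344-56140593, minus strand, the farther upstream of 2 annotated starts) fell. The RefSeq start of Sema3d lies upstream of the GENCODE one.
Sema3d: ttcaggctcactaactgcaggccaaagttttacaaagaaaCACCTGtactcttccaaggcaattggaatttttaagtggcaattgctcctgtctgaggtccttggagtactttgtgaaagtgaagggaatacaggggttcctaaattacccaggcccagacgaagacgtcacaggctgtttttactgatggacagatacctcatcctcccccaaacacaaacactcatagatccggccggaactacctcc
Sema4f: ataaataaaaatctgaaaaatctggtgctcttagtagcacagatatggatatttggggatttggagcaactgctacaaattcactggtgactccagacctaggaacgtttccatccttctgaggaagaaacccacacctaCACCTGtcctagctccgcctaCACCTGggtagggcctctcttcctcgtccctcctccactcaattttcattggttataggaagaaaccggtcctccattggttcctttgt
Sema5a: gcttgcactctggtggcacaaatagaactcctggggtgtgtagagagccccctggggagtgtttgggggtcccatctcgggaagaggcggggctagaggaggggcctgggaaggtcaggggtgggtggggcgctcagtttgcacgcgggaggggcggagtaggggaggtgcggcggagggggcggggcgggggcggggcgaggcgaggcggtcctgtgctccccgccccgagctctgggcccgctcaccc
Sema6b: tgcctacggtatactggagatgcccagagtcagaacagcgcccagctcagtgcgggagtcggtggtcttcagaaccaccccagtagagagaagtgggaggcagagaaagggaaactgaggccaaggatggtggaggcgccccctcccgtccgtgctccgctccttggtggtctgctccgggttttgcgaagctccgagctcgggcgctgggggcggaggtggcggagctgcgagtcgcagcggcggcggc

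The searched letters were TGANTCA (AP-1), CCGGAAG (ETS), CTTTGAT (TCF/LEF), CAGGTG (an E-box) and TGACGTCA (CRE), on both strands and without overlap between motifs in the 4 windows. The capitals are the E-box read on the other strand, CACCTG, 1 match in Sema3d and 2 in Sema4f, and the windows of Sema5a and Sema6b held none of the 5 motifs. Windows were given for 44 of the 52 genes and for 10225 genes of the table. The E-box was in 4 of the 5 genes higher in all 6 comparisons (Epha1, Robo1, Sema3d and Sema4f), in 0 of the 3 lower ones, in 9 of the 44 (20.5%) and in 18.7% of all genes with a window. AP-1 was in 3 of the 44 against 5.97% of all, among them Sema6b at its other start, ETS in 2 against 15.5%, TCF/LEF in 1 (Nrp2) against 2.82% and CRE in 1 (Epha2) against 3.06%. The 4 windows also differed in base composition, with 46.8% and 46% G and C in Sema3d and Sema4f and 72.0% and 66.0% in Sema5a and Sema6b. A match is a stretch of letters and was not tested as a binding site. The sets of 5 and 3 genes were formed from these same fold changes, and the motif counts in them were not tested.

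Sema3d (ENSMUSG00000040254, chr5:12383385-12588948) encodes a secreted class 3 semaphorin and had the largest log2 fold change of the 5 risers in each of the 6 comparisons. In NaJa-D it went from 4.67, 5.4 and 5.05 CPM in DMSO to 11, 11.6 and 13.6 with encorafenib at day 1 (1.25 ± 0.13 (SE), limma adjusted p = 5.71e-09), and from 8.35, 8.34 and 7.29 to 31.2, 27.7 and 27.4 at day 5 (1.85 ± 0.10 (SE), limma adjusted p = 1.18e-14). In NaJa-F it went from 5.57, 5.03 and 3.93 to 14.8, 16 and 13.5 CPM at day 1 (1.63 ± 0.12 (SE), limma adjusted p = 3.67e-12) and from 6.78, 7.38 and 8.41 to 35.1 and 31.8 at day 5 (2.15 ± 0.10 (SE), limma adjusted p = 4.04e-15). In NaJa-G, where DMSO levels were lowest, it went from 1.13, 1.1 and 0.749 to 13.7, 13.7 and 13.9 CPM at day 1 (3.79 ± 0.19 (SE), limma adjusted p = 1.91e-16) and from 2.83 and 2.13 to 52.4, 55.5 and 56.1 at day 5 (4.49 ± 0.16 (SE), limma adjusted p = 3.15e-19). No treated library overlapped its control in any line. Sema3a, the founding chemorepellent of the class, rose with it, in NaJa-D at day 5 from 111, 120 and 104 to 258, 244 and 240 CPM (1.15 ± 0.066 (SE), limma adjusted p = 3.61e-14) and in NaJa-G at day 5 from 27 and 23.2 to 101, 107 and 105 (2.06 ± 0.079 (SE)). Sema3b and Sema3f, both described as tumor-suppressing class 3 members, were called higher at day 1 in each line and at day 5 only in NaJa-G among the calls, where Sema3b had a log2 fold change of 1.25 and Sema3f of 1.69. At day 5 they were at 0.24 and 0.21 in NaJa-D and 0.16 and 0.35 in NaJa-F. Sema3c, the most abundant semaphorin per kb, was called in NaJa-F at day 1 (0.33) and in NaJa-G at both days (0.65 and 0.81).

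The membrane-bound semaphorins went both ways. Sema4f (ENSMUSG00000000627, chr6:82911885-82939769) rose from 49.7, 47.9 and 48 to 206, 209 and 203 CPM in NaJa-G at day 1, a log2 fold change of 2.09 ± 0.046 (SE), limma adjusted p = 2.79e-24, and by 0.73 and 0.59 in NaJa-D and NaJa-F. The treated NaJa-G libraries still lay below the treated NaJa-D ones, at 218, 226 and 246 CPM. Sema5a (ENSMUSG00000022231, chr15:32244810-32696341), a transmembrane semaphorin that binds plexins of the A and B classes, fell. In NaJa-D it went from 52.4, 46.2 and 38.3 to 13.3, 11.9 and 10 CPM at day 5 (-1.95 ± 0.11 (SE), limma adjusted p = 5.03e-14). In NaJa-F it went from 70.2, 70.9 and 68.6 to 11.8 and 10.9 CPM (-2.62 ± 0.13 (SE), limma adjusted p = 5.68e-15). In NaJa-G it went from 86.3, 84.9 and 78.8 to 31.8, 32.9 and 34 CPM at day 1 (-1.34 ± 0.095 (SE), limma adjusted p = 3.96e-13) and from 141 and 111 to 16.7, 15.3 and 17.1 at day 5 (-2.94 ± 0.11 (SE), limma adjusted p = 1.04e-18). At day 5 the treated libraries of all 3 lines lay between 10.0 and 17.1 CPM, although the DMSO libraries ran from 38.3 to 141.

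Sema6b (ENSMUSG00000001227, chr17:56123085-56140343) fell from 3.52, 4.27 and 3.88 to 1.05, 1.16 and 1.35 CPM in NaJa-D at day 1 (-1.71 ± 0.26 (SE), limma adjusted p = 2.20e-06), and by 1.40 ± 0.28 (SE) at day 5 (limma adjusted p = 0.000154). In NaJa-F at day 1 it fell from 12, 14.3 and 11.3 to 5.5, 4.68 and 4.97 CPM (-1.31 ± 0.14 (SE), limma adjusted p = 7.36e-09). In NaJa-G it fell from 11.2, 8.41 and 8.77 to 2.13, 1.97 and 2.49 CPM at day 1 (-2.12 ± 0.18 (SE), limma adjusted p = 2.21e-11) and by 1.55 ± 0.19 (SE) at day 5 (limma adjusted p = 4.47e-08). Its relative Sema6d, a transmembrane ligand of Plxna1, fell in 5 of the 6 comparisons, among them NaJa-F at day 1 from 4.39, 4.26 and 4.53 to 2.54, 1.78 and 1.86 CPM (-1.11 ± 0.13 (SE), limma adjusted p = 9.34e-08) and at day 5 from 5.95, 5.62 and 5.07 to 2.43 and 1.95 (-1.35 ± 0.15 (SE), limma adjusted p = 6.57e-08). The exception was NaJa-G at day 5, at 0.058 ± 0.083 (SE). Sema4g and Sema6a, at group means of at most 1.09 and 0.977 CPM, were called in no encorafenib comparison.

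**Figure D3:**
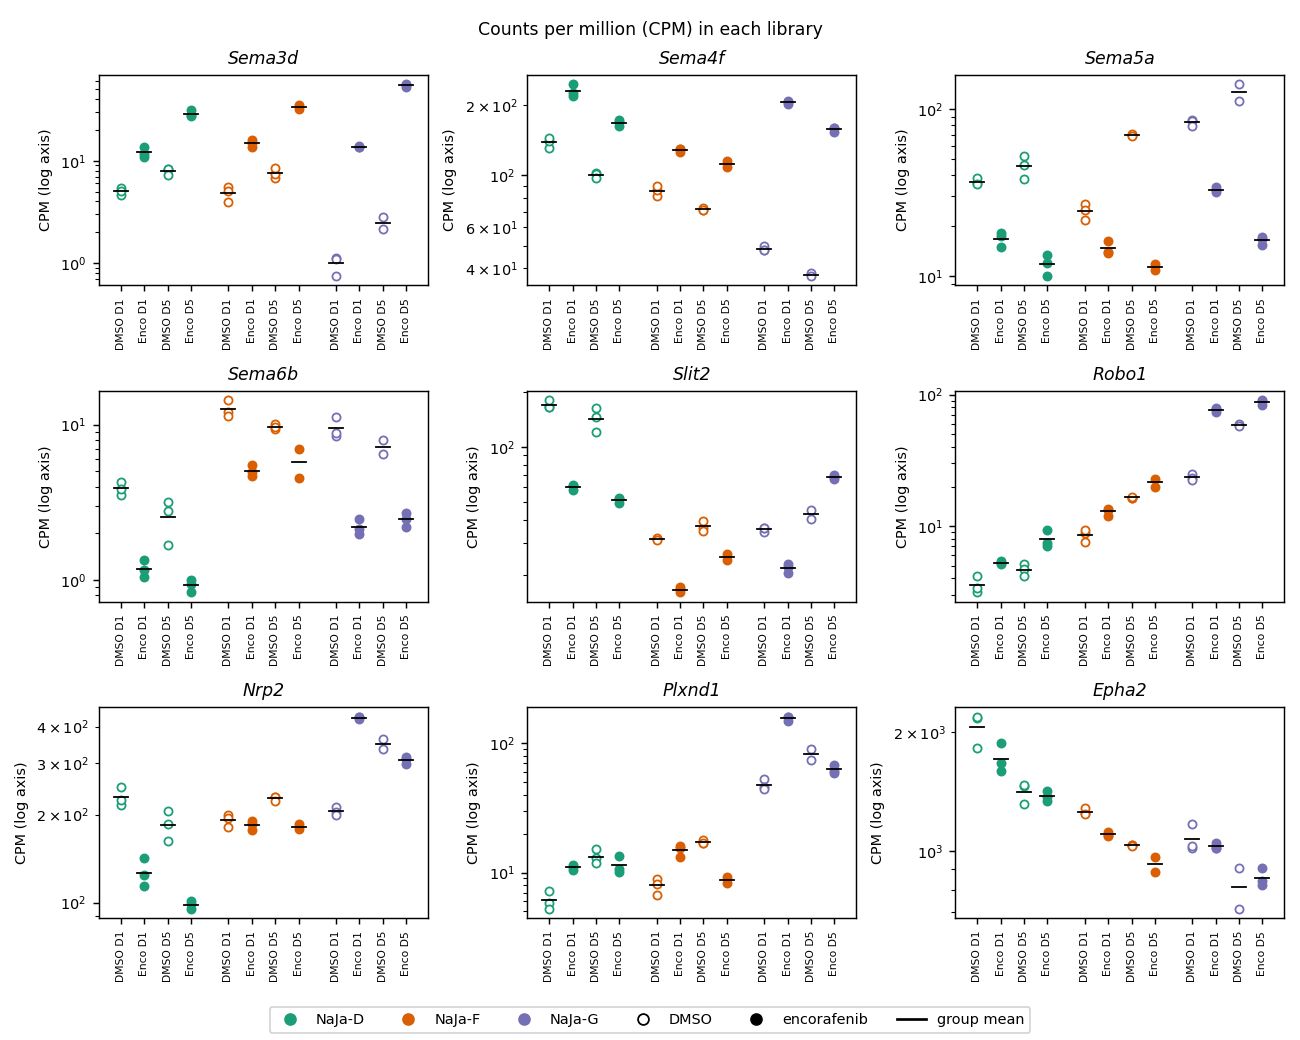
CPM of 9 genes in each library (log axes), by line (color), day and treatment (open DMSO, filled encorafenib), with lines at the group means. Sema3d and Sema4f lie higher and Sema5a and Sema6b lower with encorafenib in each line, Slit2 and Nrp2 change direction between lines or days, and Epha2 stays between 716 and 2190 CPM.

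The receptors of the semaphorins rose most in NaJa-G at day 1, where 6 of 8 plexins and both neuropilins were higher (background 35.3% of all genes) and Plxna4 alone was lower (28.7%). Plxna2, a receptor of class 6 and, with neuropilins, class 3 semaphorins, rose in NaJa-D from 55.5, 62.1 and 60.8 to 137, 130 and 137 CPM at day 1 (1.18 ± 0.081 (SE), limma adjusted p = 1.38e-12) and in NaJa-G from 44.9, 47 and 45.4 to 234, 236 and 226 (2.34 ± 0.082 (SE)). Plxna3 rose in NaJa-D alone among the calls, from 8.54, 10.7 and 9.7 to 23.2, 23.1 and 18.3 CPM at day 1 (1.16 ± 0.15 (SE), limma adjusted p = 1.75e-07), and stood at -0.024 ± 0.15 (SE) in NaJa-F and -0.22 ± 0.11 (SE) in NaJa-G. Plxnb3, a receptor of Sema5a, was low throughout. It rose in NaJa-F from 0.36, 0.416 and 0.504 to 1.55, 1.57 and 1.3 CPM at day 1 (1.76 ± 0.26 (SE), limma adjusted p = 2.79e-06) and from 0.462, 0.55 and 0.311 to 1.09 and 0.925 at day 5 (1.21 ± 0.30 (SE), limma adjusted p = 0.00312), and the day 5 call was lost without DMSO library 3, at 0.97 (adjusted p = 0.0297), or encorafenib library 1, at 1.08 (adjusted p = 0.0371). Plxnd1 reversed with time in NaJa-F and NaJa-G. In NaJa-F it rose by 0.93 at day 1 and at day 5 went from 16.8, 18 and 16.9 to 8.31 and 9.19 CPM (-0.98 ± 0.14 (SE), limma adjusted p = 4.73e-06). In NaJa-G it rose from 53.3, 45.8 and 44.5 to 160, 161 and 150 CPM at day 1 (1.72 ± 0.088 (SE)) and was at -0.40 ± 0.097 (SE) at day 5. Plxna1, whose exons overlap the antisense gene Gm26811 over 10.7%, rose at day 1 in each line, most in NaJa-G (1.40).

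Nrp1 and Nrp2, the co-receptors of class 3 semaphorins and of VEGF, parted. Nrp1 was higher in 5 of the 6 comparisons, by 0.59 in NaJa-D and 1.14 in NaJa-G at day 1. Nrp2 in NaJa-D fell from 215, 224 and 248 to 114, 124 and 142 CPM at day 1 (-0.86 ± 0.070 (SE), limma adjusted p = 3.88e-11) and by 0.90 at day 5, and in NaJa-F it fell by 0.32 at day 5 (-0.059 at day 1, not called). In NaJa-G it rose from 213, 204 and 200 to 432, 431 and 425 CPM at day 1 (1.06 ± 0.073 (SE), limma adjusted p = 1.93e-13) and was at -0.18 at day 5, not called.

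Eph receptors responded one by one. Epha1 (ENSMUSG00000029859, chr6:42358487-42373268) rose most in NaJa-G at day 5, from 4 and 5.45 to 23.1, 25.6 and 23.9 CPM (2.35 ± 0.12 (SE), limma adjusted p = 1.19e-15). Epha4, which binds ephrins of both classes, fell at day 1 in each line, in NaJa-D from 45.2, 44.8 and 52.4 to 17.6, 18.9 and 21.5 CPM (-1.30 ± 0.079 (SE), limma adjusted p = 9.56e-14), and at day 5 in NaJa-D and NaJa-F, but not in NaJa-G (-0.096). Epha7 rose in NaJa-F from 2.95, 2.82 and 2.53 to 5.82, 5.59 and 5.71 CPM at day 1 (1.05 ± 0.090 (SE), limma adjusted p = 1.85e-10). Epha5 stayed near or below 1 CPM in each group yet moved in opposite directions. In NaJa-D it went from 3 to 8 counts per DMSO library to 27 to 54 with encorafenib at day 1, and in NaJa-G from 40 to 60 counts to 2 to 10 (limma adjusted p = 2.87e-05 and 1.07e-06). Epha2 (ENSMUSG00000006445, chr4:141301240-141329384), a known ERK target, moved little. Its NaJa-D libraries at day 1 were at 1830, 2170 and 2190 CPM in DMSO and 1600, 1670 and 1880 with encorafenib, with overlap. The log2 fold change of -0.26 ± 0.077 (SE), limma adjusted p = 0.00523, lost its call without DMSO library 2 or 3 or encorafenib library 1 or 2 (-0.23, -0.25, -0.21 and -0.24). In the other 5 comparisons Epha2 was not called, with 95% intervals of -0.19 to 0.12 in NaJa-D at day 5, -0.35 to -0.038 and -0.33 to 0.010 in NaJa-F, and -0.21 to 0.096 and -0.079 to 0.26 in NaJa-G.

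Of the crypt genes, Ephb3 and Efnb1 rose in NaJa-G at both days. Ephb3 went from 50.5, 45.4 and 47.1 to 121, 124 and 123 CPM at day 1 (1.36 ± 0.072 (SE), limma adjusted p = 5.22e-16) and from 60.3 and 67 to 96.4, 104 and 90.2 at day 5 (0.61 ± 0.080 (SE), limma adjusted p = 1.77e-07). In NaJa-D at day 1 its small rise (0.24 ± 0.072 (SE), limma adjusted p = 0.00667) was lost without DMSO library 1 or 3 or encorafenib library 2 or 3, down to 0.14 (adjusted p = 0.131) without DMSO library 1. It was at -0.14 in NaJa-D at day 5 and at 0.17 and -0.049 in NaJa-F, not called. Efnb1 in NaJa-G went from 104, 87.4 and 84.8 to 222, 210 and 224 CPM at day 1 (1.25 ± 0.10 (SE), limma adjusted p = 1.15e-11) and from 109 and 124 to 163, 175 and 165 at day 5 (0.53 ± 0.12 (SE), limma adjusted p = 0.000237). In NaJa-F at day 5 it went from 54, 54.1 and 50 down to 31.1 and 42.7 CPM (-0.53 ± 0.12 (SE), limma adjusted p = 0.00137), a call lost without encorafenib library 1, at -0.31 (adjusted p = 0.108). In NaJa-D it was at -0.24 and -0.29, and in NaJa-F at day 1 at 0.11, not called.

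Ephb2 was called in NaJa-G at day 5 alone, at 1.69 and 2.23 CPM in DMSO and 3.5, 3 and 3.04 with encorafenib (0.69 ± 0.15 (SE), limma adjusted p = 0.000327). Without NaJa-G DMSO day 5 library 1 that value was 0.50 (adjusted p = 0.0183) and that of Efnb1 0.43 (adjusted p = 0.0129). In the other comparisons Ephb2 was not called, at -0.27 and -0.46 for NaJa-D, -0.036 and 0.32 in NaJa-F and 0.29 in NaJa-G at day 1. Efnb2 fell in NaJa-G at day 1 (-0.33 ± 0.067 (SE), limma adjusted p = 7.77e-05), and in the other comparisons was at -0.094 and 0.11 for NaJa-D, -0.090 and -0.011 in NaJa-F and 0.20 in NaJa-G at day 5. Efnb3 fell in NaJa-F at day 1 from 2.21, 1.81 and 4.25 to 1.24, 1.37 and 1.25 CPM (-1.02 ± 0.30 (SE), limma adjusted p = 0.00776) and in NaJa-G from 2.71, 3.78 and 4.46 to 1.12, 1.48 and 1.11 (-1.49 ± 0.29 (SE), limma adjusted p = 5.53e-05). The NaJa-F call was lost without DMSO library 3, at -0.62 (adjusted p = 0.106), or any of the 3 encorafenib libraries, at -0.99, -1.06 and -0.999. Efna3, an A ligand, rose in NaJa-G at day 1 from 1.7, 1.62 and 1.43 to 9.97, 9.65 and 9.49 CPM (2.60 ± 0.13 (SE), limma adjusted p = 1.93e-16) and was at 0.090 at day 5. An antisense gene, Gm15998, overlaps 14.1% of the exons of Efna3.

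In the Slit and Robo system, the ligand fell and the receptor rose at day 1. Slit2 in NaJa-D went from 164, 165 and 179 to 58.2, 62.2 and 61 CPM at day 1 (-1.49 ± 0.071 (SE), limma adjusted p = 5.51e-16) and from 162, 146 and 120 to 52.2, 52.9 and 49.2 at day 5 (-1.46 ± 0.071 (SE), limma adjusted p = 1.11e-15). It also fell in NaJa-F at both days (-0.92 and -0.56) and in NaJa-G at day 1 (-0.69). In NaJa-G at day 5 it rose, from 45.2 and 40.3 to 66.5, 70.6 and 68.7 CPM (0.69 ± 0.080 (SE), limma adjusted p = 2.38e-08). Robo1 rose in each comparison, most in NaJa-G at day 1, from 24.9, 23.1 and 22.5 to 78.7, 77.3 and 73.3 CPM (1.70 ± 0.067 (SE)). Robo2 in NaJa-G rose from 0.916, 0.683 and 0.632 to 11.9, 12 and 12.3 CPM at day 1 (4.01 ± 0.23 (SE), limma adjusted p = 3.64e-15) and by 1.76 at day 5, and in NaJa-D and NaJa-F it stayed at or below 15 counts per library. Slit3 was called lower in NaJa-G at day 5 (-2.31 ± 0.69 (SE), limma adjusted p = 0.0048), but that rested on 1 library. The 2 DMSO libraries were at 30 and 3.13 CPM and the treated ones at 2.9, 0.687 and 2.78, and without DMSO library 1 the log2 fold change was -0.79 (adjusted p = 0.201). The call was also lost without any 1 of the 3 encorafenib libraries (-2.64, -1.67 and -2.65). In DMSO library 1, 31 genes were over 4 times higher than in library 3 (with 0.5 CPM added to each) and 0 were lower, while other replicate pairs had at most 18 such genes in 1 direction.

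The netrins were higher wherever they were called. Ntn1 in NaJa-D went from 0.786, 0.583 and 0.392 to 1.92, 1.04 and 1.32 CPM at day 5 (1.23 ± 0.26 (SE), limma adjusted p = 0.000292), in NaJa-F from 2.02, 2.31 and 1.98 to 4.71 and 5.16 (1.23 ± 0.16 (SE), limma adjusted p = 9.49e-07) and in NaJa-G from 0.569 and 0.333 to 8.43, 8.79 and 8.08 (4.28 ± 0.28 (SE), limma adjusted p = 1.28e-13). At day 1 it was called in NaJa-G (1.91) and stood at 0.78 and 0.46 in NaJa-D and NaJa-F. Ntn4 rose in NaJa-G from 22.8, 20.7 and 20 to 87.8, 80.5 and 88 CPM at day 1 (2.01 ± 0.062 (SE)), above the treated libraries of NaJa-D (61.9, 63.8 and 71.2) though its DMSO level was the lowest of the lines. The netrin receptor Unc5b was nearly flat, with log2 fold changes of 0.022 to 0.26 at day 1, called in NaJa-G alone. Neogenin (Neo1), another netrin receptor, had lower group means with encorafenib in each line at both days. It went from 545 to 438 CPM in NaJa-D at day 1 and from 439 to 384 at day 5. In NaJa-F it went from 368 to 309 and from 397 to 349 CPM, and in NaJa-G from 396 to 313 and from 474 to 416.

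Whether the lines responded differently was tested as the difference between their log2 fold changes. At day 1, 32 of the 52 genes differed between NaJa-G and NaJa-D (background 36.4% in either direction), 23 between NaJa-G and NaJa-F (33.5%) and 10 between NaJa-F and NaJa-D (8.79%). At day 5 the counts were 27 (21.9%), 24 (24.2%) and 10 (8.85%). These are 61.5%, 44.2% and 19.2% of the 52 at day 1 and 51.9%, 46.2% and 19.2% at day 5, each above its background. Of the 32 genes at day 1, 23 or 71.9% had the more positive fold change in NaJa-G, against 55.5% of all genes called there. Scaled by library size alone, these shares were 66.7% and 40.2%. At day 5 they were 81.5% of the 27 genes and 64.3% of all called genes (75.9% and 51.4% by library size alone). Between NaJa-F and NaJa-D, 6 were more positive in NaJa-F and 4 in NaJa-D at day 1 (4 and 5 scaled by library size alone), and 7 and 3 at day 5 (7 and 1 with RLE scaling, 7 and 5 with DESeq2). Of all genes called between these 2 lines, 51.0% at day 1 and 46.1% at day 5 were more positive in NaJa-F. The comparisons share libraries, since each line enters 2 of them at each day.

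**Figure D4:**
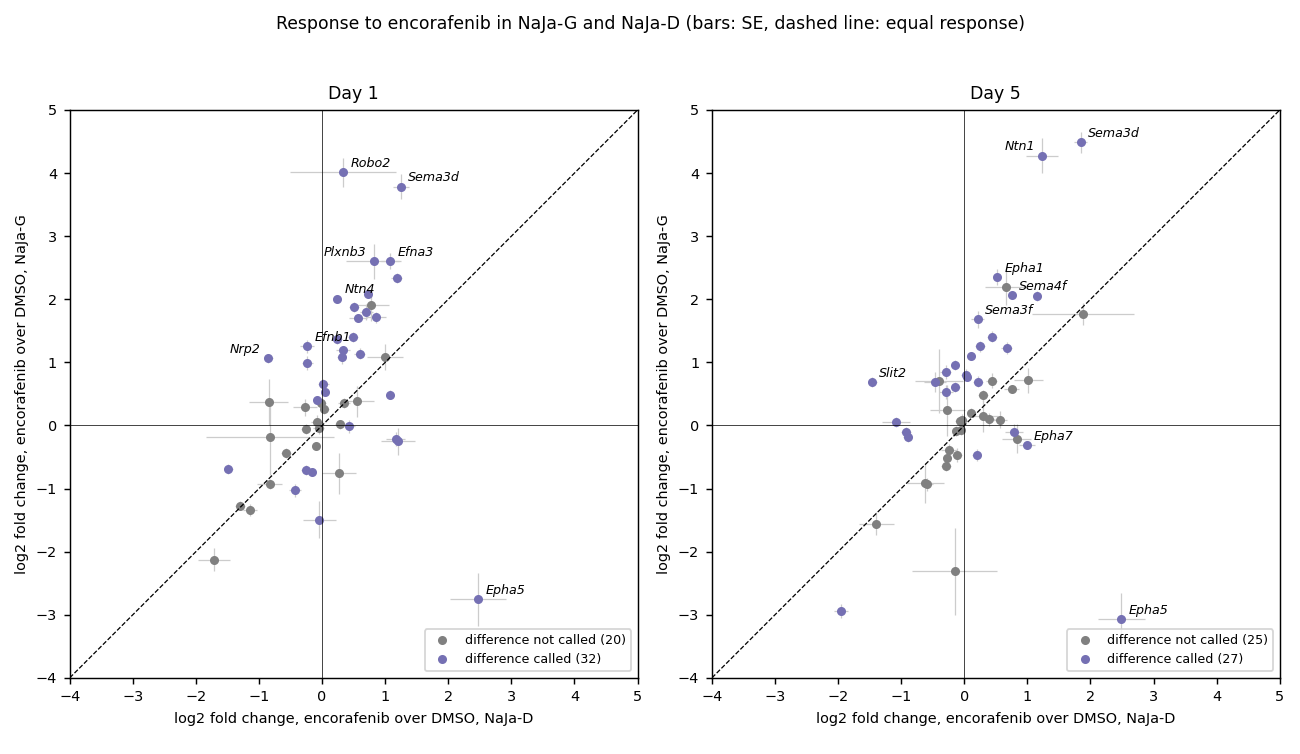
Log2 fold change with encorafenib in NaJa-G (vertical) against NaJa-D (horizontal) for the 52 genes at day 1 and day 5, with SE bars and a dashed line of equal response. The 32 and 27 genes whose difference was called are purple, most of them above the line, with Epha5 far below it at both days.

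Of all 52 genes, the low Epha5 differed most between NaJa-G and NaJa-D, by -5.23 at day 1 and -5.55 at day 5, and the genes below are the leading ones among those that reach 1 CPM. Between NaJa-G and NaJa-D at day 1, Sema3d differed by 2.54 ± 0.23 (SE), limma adjusted p = 8.10e-10, and Nrp2 by 1.92 ± 0.10 (SE), limma adjusted p = 1.67e-14, the latter from a fall in NaJa-D and a rise in NaJa-G. The difference of Robo2 (3.68 ± 0.87 (SE), limma adjusted p = 0.001) rests on 0 to 6 counts per NaJa-D library and lost its call without NaJa-D DMSO library 1, at 2.85 (adjusted p = 0.0153). Between NaJa-G and NaJa-F at day 1, Sema3d (2.16 ± 0.22 (SE), limma adjusted p = 6.95e-09), Efna3 (1.80 ± 0.22 (SE), limma adjusted p = 1.27e-07) and Ntn4 (1.55 ± 0.084 (SE), limma adjusted p = 3.62e-14) differed most. Between NaJa-F and NaJa-D they were Plxna3 (-1.19 ± 0.21 (SE), limma adjusted p = 0.000283), Ephb6 (0.92 ± 0.13 (SE), limma adjusted p = 1.66e-05) and Nrp2 (0.80 ± 0.099 (SE), limma adjusted p = 3.14e-06). At day 5, Ntn1 (3.04 ± 0.38 (SE), limma adjusted p = 3.21e-07), Sema3d (2.64 ± 0.19 (SE), limma adjusted p = 1.43e-11) and Slit2 (2.15 ± 0.11 (SE), limma adjusted p = 6.75e-15) differed most between NaJa-G and NaJa-D.

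On day 5 the leading genes between NaJa-G and NaJa-F were Ntn1 (3.05 ± 0.32 (SE), limma adjusted p = 1.50e-08), Sema3d (2.33 ± 0.19 (SE), limma adjusted p = 1.62e-10) and Epha1 (1.73 ± 0.15 (SE), limma adjusted p = 2.61e-10). Between NaJa-F and NaJa-D they were Ephb6 (0.91 ± 0.13 (SE), limma adjusted p = 1.33e-05), Slit2 (0.90 ± 0.11 (SE), limma adjusted p = 1.75e-06) and Plxna4 (0.84 ± 0.13 (SE), limma adjusted p = 4.72e-05). The crypt genes Ephb3 and Efnb1 responded more strongly in NaJa-G than in NaJa-D at day 1, by 1.13 ± 0.10 (SE), limma adjusted p = 6.18e-10, and 1.49 ± 0.15 (SE), limma adjusted p = 5.27e-09. Against NaJa-F the differences were 1.19 and 1.14, and at day 5 they were 0.75 and 0.82 against NaJa-D and 0.65 and 1.06 against NaJa-F, all called. Between NaJa-F and NaJa-D neither was called, at -0.065 and 0.35 at day 1 and 0.093 and -0.24 at day 5. Ephb2 differed between NaJa-G and NaJa-D at day 5 (1.15 ± 0.23 (SE), limma adjusted p = 0.000314) and was called in none of the other 5 comparisons, at 0.23 to 0.78. Epha2 and Efnb2 were not called in any of these 6 comparisons, with Epha2 at -0.12 to 0.25 and Efnb2 at -0.24 to 0.21.

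The response at day 5 was compared with that at day 1 in the same way. It differed for 4 genes in NaJa-D (background 7.29%), 10 in NaJa-F (5.88%) and 28 in NaJa-G (31.7%), or 7.69%, 19.2% and 53.8% of the 52, near the background in NaJa-D and above it in the others. Of all genes called in these comparisons, 37.8% in NaJa-D and 15.8% in NaJa-F were more positive at day 5, so most were more negative. Of the 52, 1 was more positive and 3 more negative at day 5 in NaJa-D. That split was 0 and 5 scaled by library size alone and 3 and 3 with DESeq2. In NaJa-F, 3 of the 52 were more positive and 7 more negative (3 and 4 with RLE scaling). With only the compared groups fitted, 2 genes were called in NaJa-D, and 8 without encorafenib day 1 library 3. In NaJa-F, 5 were called without encorafenib day 1 library 1 or 2, DMSO day 5 library 1 or 2 or encorafenib day 5 library 1, and 6 without encorafenib day 5 library 2 or DMSO day 1 library 1. The log2 fold change of Plxnd1, Sema5a and Plxna2 was lower at day 5 than at day 1 in each line. In NaJa-D the differences were -1.09 ± 0.20 (SE), limma adjusted p = 0.000454, for Plxnd1, -0.82 ± 0.16 (SE), limma adjusted p = 0.000814, for Sema5a and -0.75 ± 0.11 (SE), limma adjusted p = 4.18e-05, for Plxna2. The Sema5a call was lost with only the compared groups fitted, at -0.795 (adjusted p = 0.0169). In NaJa-F they were -1.91 ± 0.19 (SE), limma adjusted p = 2.55e-08, -1.89 ± 0.17 (SE), limma adjusted p = 4.53e-09, and -0.84 ± 0.12 (SE), limma adjusted p = 1.13e-05. For Sema5a in NaJa-F the DMSO level rose between the days, while the treated libraries were at 16.1, 13.7 and 14 CPM on day 1 against 11.8 and 10.9 on day 5. For Plxnd1 in NaJa-D the DMSO level also rose. Its treated libraries were at 11, 10.5 and 11.4 CPM on day 1 against 13.4, 10.6 and 10.1 on day 5. In NaJa-G, Efna3 (-2.52 ± 0.19 (SE), limma adjusted p = 1.34e-11) and Robo2 (-2.25 ± 0.29 (SE), limma adjusted p = 3.34e-07) responded less at day 5, and Ntn1 more (2.37 ± 0.38 (SE), limma adjusted p = 9.04e-06). Robo2 rose in DMSO, from 0.916, 0.683 and 0.632 to 2.93 and 3.09 CPM. Its treated libraries were at 11.9, 12 and 12.3 CPM on day 1 and 8.75, 10.8 and 11.3 on day 5. Among the crypt genes in NaJa-G, Ephb3 (-0.76) and Efnb1 (-0.72) responded less at day 5, and Efnb2 went from -0.33 to 0.20 (0.53 ± 0.10 (SE), limma adjusted p = 9.00e-05). In NaJa-F the Efnb1 difference (-0.64 ± 0.16 (SE), limma adjusted p = 0.00781) lost its call when any 1 of 6 libraries was left out, down to -0.42 (adjusted p = 0.112) without encorafenib day 5 library 1. In NaJa-G, Epha2 (0.15) and Ephb2 (0.40) were not called, nor were Epha2, Ephb2, Ephb3 and Efnb2 in NaJa-F, at 0.033, 0.36, -0.22 and 0.079. In NaJa-D none of Epha2, Ephb2, Ephb3, Efnb1 and Efnb2 was called, at 0.22, -0.19, -0.38, -0.053 and 0.20.

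Genes that were called higher in some of the 6 encorafenib comparisons and lower in others numbered 8 of 52 or 15.4%, against 6.34% of all genes. They were the receptors Epha5, Epha7, Ephb6, Nrp2 and Plxnd1 and the ligands Slit2, Efna4 and Efnb1. Ephb6 split by line, falling in NaJa-D at day 5 (-0.30) and rising in NaJa-F and NaJa-G. Epha7 and Efna4 split by day in NaJa-G, with Epha7 at 1.20 and -0.32 and Efna4 at 0.35 and -0.47. The lower call of Ephb6 was lost without DMSO library 1 or 2 or encorafenib library 2 or 3 (largest adjusted p 0.0455, at -0.24, without DMSO library 2). Without NaJa-G DMSO day 5 library 3, the lower calls of Epha7 (-0.23 (adjusted p = 0.0164)) and Plxnd1 (-0.25 (adjusted p = 0.0654)) in NaJa-G were lost.

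Other genes of these pathways were taken from a list of 40 co-receptors, ligands and signal transducers, of which 36 were in the table. In NaJa-D, 11 rose (background 23.7%) and 5 fell (21.2%) at day 1, and 7 rose (18.3%) and 4 fell (14.7%) at day 5. In NaJa-F, 13 rose (17.5%) and 5 fell (12%) at day 1, and 6 rose (9.70%) and 2 fell (8.50%) at day 5. In NaJa-G, 23 rose (35.3%) and 7 fell (28.7%) at day 1, and 18 rose (28.5%) and 5 fell (24.7%) at day 5. The genes named next were picked after their values were seen. Enah, an actin regulator downstream of Robo and Unc5, rose in each of the 6, by 0.365 to 1.42. Srgap1, a GTPase-activating protein of the Slit pathway, rose in each by 0.46 to 1.93, and Plxdc2, a plexin-domain membrane protein, by 0.435 to 3.77. Ngef, an exchange factor that binds Epha receptors, fell in each by 0.41 to 2.70 on the log2 scale. Tiam1, a Rac exchange factor used by ephrin-B and Epha2, fell in 5 of the 6.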

How the data were processed

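RNA-seq counts per gene were deposited for 34 libraries. Reads had been trimmed with Trimmomatic 0.39 and aligned with STAR 2.5.2b to GRCm38 by the authors, per the submitters' processing notes. The counting tool, its annotation release and its strand setting are not given in the sources used here, so genes overlapping on opposite strands cannot be separated. The deposited counts, unnormalized, were fitted as 12 group means with limma 3.58.1 (voom weights, TMM factors, R 4.3.3), two-sided, with Benjamini-Hochberg adjustment over 14107 genes and calls at an adjusted p below 0.01. Line comparisons averaged both days. Alternatives were edgeR 4.0.16 quasi-likelihood, DESeq2 1.42.0, RLE or library-size scaling, filterByExpr, a replicate block, other thresholds, fitting only the compared groups and leaving out single libraries. Where that left 1 library in a group (NaJa-F with encorafenib or NaJa-G with DMSO, day 5), it was assumed to vary like the other groups. Symbols, positions and exon lengths came from GENCODE on GRCm38, and promoter sequences from RefSeq. Counts were simulated for encorafenib in NaJa-D at day 1 with 200 of 14107 genes changed, far fewer than the 6335 called in the data. On these, limma found 80 of 100 genes changed by 1 on the log2 scale and 97 of 100 changed by 2. It made 2 false calls among the unchanged genes.

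The members followed a rule on symbols, and that rule and the lists were chosen with earlier results of these data known. Named with full statistics were Epha2, Ephb2, Ephb3, Efnb1 and Efnb2 everywhere, and, among members at 1 CPM or more in a compared group, the 3 highest and 3 lowest called per encorafenib and line comparison, 1 each over time, and the 3 largest called differences in response.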

Additional observations from a re-analysis of the deposited data

Results flagged for a closer look

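The difference in response to encorafenib between lines or days was tested directly with limma, and the 3 largest called differences of each comparison, on the log2 scale, are collected here. NaJa-F minus NaJa-D at day 1 was -1.19 for Plxna3, 0.92 for Ephb6 and 0.80 for Nrp2, and at day 5 it was 0.91 for Ephb6, 0.90 for Slit2 and 0.84 for Plxna4. NaJa-G minus NaJa-D at day 1 was 3.68 for Robo2, 2.54 for Sema3d and 1.92 for Nrp2, and at day 5 it was 3.04 for Ntn1, 2.64 for Sema3d and 2.15 for Slit2. NaJa-G minus NaJa-F at day 1 was 2.16 for Sema3d, 1.80 for Efna3 and 1.55 for Ntn4, and at day 5 it was 3.05 for Ntn1, 2.33 for Sema3d and 1.73 for Epha1. Without NaJa-D DMSO day 1 library 1 the Robo2 value was 2.85 (adjusted p = 0.0153).

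Day 5 minus day 1 in NaJa-D was -1.09 for Plxnd1, -0.82 for Sema5a (its call was lost with only the compared groups fitted) and -0.75 for Plxna2. In NaJa-F it was -1.91 for Plxnd1, -1.89 for Sema5a and -0.84 for Plxna2. In NaJa-G it was -2.52 for Efna3, 2.37 for Ntn1 and -2.25 for Robo2. With 2 or 3 libraries per group, no test for a single deviating library was applied.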

How the results depend on the processing

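Under the alternatives tried, no called gene named here changed direction, and the sign changes seen were in uncalled values, among them, with library size alone, Sema3c and Sema3d for NaJa-F against NaJa-D, and others when single libraries were left out. A log2 fold change of 1 or more in size left, for encorafenib, 11 and 9 genes in NaJa-D (day 1 and day 5), 7 and 5 in NaJa-F and, for NaJa-G, 26 and 16, for the lines 14 (NaJa-F against NaJa-D), 26 (NaJa-G against NaJa-D) and 18 (NaJa-G against NaJa-F), over time 2 (NaJa-D), 2 (NaJa-F) and 4 (NaJa-G), and for the differences in response 3, 18 and 13 at day 1 and 1, 13 and 13 at day 5 (NaJa-F to NaJa-D, NaJa-G to NaJa-D, NaJa-G to NaJa-F) and 1, 2 and 13 between days. At an adjusted p below 0.05, 19 genes were called over time in NaJa-F and 10 between days in NaJa-D. With only the compared groups fitted, 13 were called over time in NaJa-G and 2 between days in NaJa-D, and with encorafenib in NaJa-D at day 1 Epha1 was at 0.285 (adjusted p = 0.039) and Robo1 at 0.546 (adjusted p = 0.0117). Leaving out single libraries gave 8 to 10 genes over time in NaJa-F, 7 to 14 and 7 to 10 for NaJa-F to NaJa-D at day 1 and day 5, and 3 to 8 and 5 to 8 between days in NaJa-D and NaJa-F. The 192 named results include uncalled values, which cannot lose a call. Among them DESeq2 and edgeR each lost 1 call, RLE scaling 2 and library size alone 4. Library size alone also called 7 values that were uncalled before. Fitting only the compared groups lost 12 calls and gained 1. In NaJa-D with encorafenib the lost calls were Epha2 and Ephb3 at day 1. In NaJa-F with encorafenib they were Efnb3 at day 1 and Plxnb3 and Efnb1 at day 5. In NaJa-G with encorafenib they were Slit3 and Ephb2 at day 5. The others were Ephb2 for NaJa-G against NaJa-D, Epha2, Ephb3 and Efnb2 over time in NaJa-G and Sema5a between days in NaJa-D.

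Deviations of same-numbered libraries from their group means correlated at r = -0.272 to 0.215. Differently numbered libraries were not compared in this way, so whether a number marks a shared batch was not tested. With the replicate block, the encorafenib counts were 30, 27, 26, 19, 40 and 36 against 31, 27, 26, 21, 40 and 36, and 10 genes against 12 were called over time in NaJa-F. The block lost 4 calls among the 192 named results. Depth limits the low genes Epha5, Robo2 and Plxnb3, and each line stands for 1 animal.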
